A study of Mus musculus with 8 samples.

Results

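Respiratory complex I is the NADH dehydrogenase of the mitochondrial inner membrane, and 42 of its subunit genes were followed in lung group 2 innate lymphoid cells (ILC2s). The members were taken by name: 35 nuclear Nduf genes and the 7 mt-Nd genes of mitochondrial DNA, out of 55413 genes in the bulk table and 15083 in the single-cell table. All 42 stood in both tables. All mice were wild type C57BL/6. The bulk mice were female and were dosed through the nose for 3 days; 3 libraries are labelled IL-33 plus dopamine and 3 IL-33 plus PBS, each of 2000 sorted ILC2s. The single cells came from male mice, also with 3 days of treatment. They carried antibody hashtags: 3 hashtags of IL-33 plus dopamine, 3 of IL-33 and 2 of PBS, named so in the authors' cell table. Neither the age of the mice nor the number of mice behind a hashtag is stated in the labels, so p-values over hashtags measure the spread between hashtags, which may be technical.

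Complex I takes electrons from NADH in a peripheral arm that reaches into the matrix, passes them along iron-sulfur clusters to ubiquinone, and uses the energy to pump protons through a membrane arm. Its catalytic core joins nuclear subunits of the peripheral arm to the 7 subunits that mitochondria translate themselves, and a shell of nuclear accessory subunits holds the whole together. ILC2s are lymphocytes without antigen receptors that answer the alarmin IL-33 with type 2 cytokines, and the title of the series names mitochondrial activity as the process that dopamine, a catecholamine, acts on.

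The bulk libraries are Smart-Seq2, a full-length protocol, and their values are TPM, transcript levels scaled for length and to the same total in each library, so the number of reads behind them is unknown. Genes with at least 1 TPM numbered 11502, 11529 and 11745 in dopamine libraries 1 to 3, against 11384, 9822 and 10525 in PBS libraries 1 to 3. The single-cell table held 9076 cells with 0 duplicated barcodes, between 311 and 1516 cells and between 1397576 and 9268932 UMIs (counted RNA molecules) per hashtag. All 9 ILC2 markers were present in both tables, 4 of them with a higher and 5 with a lower mean log2 value with dopamine in bulk, and a summed level of 2915 to 4362 TPM in dopamine libraries and 2363 to 3658 TPM in PBS libraries. Markers of other lymphocytes also differed in bulk: the 9 T cell markers summed to 1378 to 1850 TPM with dopamine and 818 to 1249 TPM with PBS, the 6 NK cell and ILC1 markers to 103 to 195 and 7.67 to 47.4 TPM, and the 4 ILC3 markers to 85.0 to 173 and 10.9 to 62.2 TPM. Of these markers, 7 of 7 tested T cell genes, 5 of 5 NK cell and ILC1 genes and 4 of 4 ILC3 genes had a higher mean log2 value with dopamine, 3, 4 and 3 of them without overlap between groups; of all 11222 genes tested, 8011 had a higher mean log2 value with dopamine, and 23.5% were higher without overlap. The 4 B cell markers summed to 45.1 to 72.6 and 26.8 to 52.9 TPM, the 5 myeloid markers to 1.01 to 396 and 8.73 to 133 TPM, and the 4 epithelial markers to 8.87 to 20.3 and 8.44 to 9.90 TPM. The myeloid gene S100a8 and the epithelial gene Scgb1a1 were listed at 0 in all 6 libraries. The part of these markers in the results on complex I was not tested.

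In bulk, nuclear complex I transcripts were less abundant with dopamine than with PBS. The 35 nuclear members summed to 5358, 4844 and 4916 TPM in dopamine libraries 1 to 3, against 7291, 7894 and 6531 TPM in PBS libraries 1 to 3. The groups did not overlap, and the sum took 0.484% to 0.536% of a dopamine library and 0.653% to 0.789% of a PBS library. The summed level averaged 5039 ± 278 TPM with dopamine and 7239 ± 683 TPM with PBS (SD, n = 3 each). The 7 mt-Nd genes summed to 7305, 5765 and 5978 TPM with dopamine and 7337, 6755 and 5936 TPM with PBS, and these groups overlapped. These sums leave out Gm28438 and Gm10222, near-identical copies of mt-Nd3 and mt-Nd4l on chromosome 1. With both copies added, they came to 10856, 8286 and 8199 TPM with dopamine and 10490, 9764 and 8948 TPM with PBS, again overlapping. In bulk samples fewer cells of a type and less RNA per cell cannot be told apart.

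Single genes were tested with limma on log2(TPM + 1), and 41 of the 42 members passed the filter of at least 1 TPM in at least 3 libraries; the exception was mt-Nd4l, listed at 0 throughout. None of the 41 passed at an adjusted p under 0.05, where 4 of 11222 genes did (0.0356%), all higher with dopamine; the smallest adjusted p of a member was 0.0832. A negative log2 fold change was found in 36 members, against 28.6% of all genes. At an unadjusted p under 0.05, 19 members were lower and 1 was higher, where 4.62% of all genes were lower and 19.5% higher. A total of 22 members, all nuclear, were lower without overlap between the groups, against 6.57% of all genes, and 0 were higher without overlap, against 23.5%. The median log2 fold change of the 41 members was -0.51. The median of all tested genes was 0.49 in the deposited TPM, so changes are also given relative to it: the members' median was then -1.01, with 39 members below the median of all genes and 2, Ndufs1 and mt-Nd5, above it. The members' median was -0.62 with quantile normalization and -0.38 with detected genes as a term. Median-of-ratios scaling gave 34 members lower at an unadjusted p under 0.05 and none that passed. With this scaling 2534 of 11222 genes had such a p by limma in either direction, against 2706 in deposited TPM. Limma with library weights called 16 members, 14 lower (3.22% of all genes) and 2 higher (21.7%), and leaving out PBS library 1 called 6, 4 lower (0.909%) and 2 higher (11.4%).

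**Figure D1:**
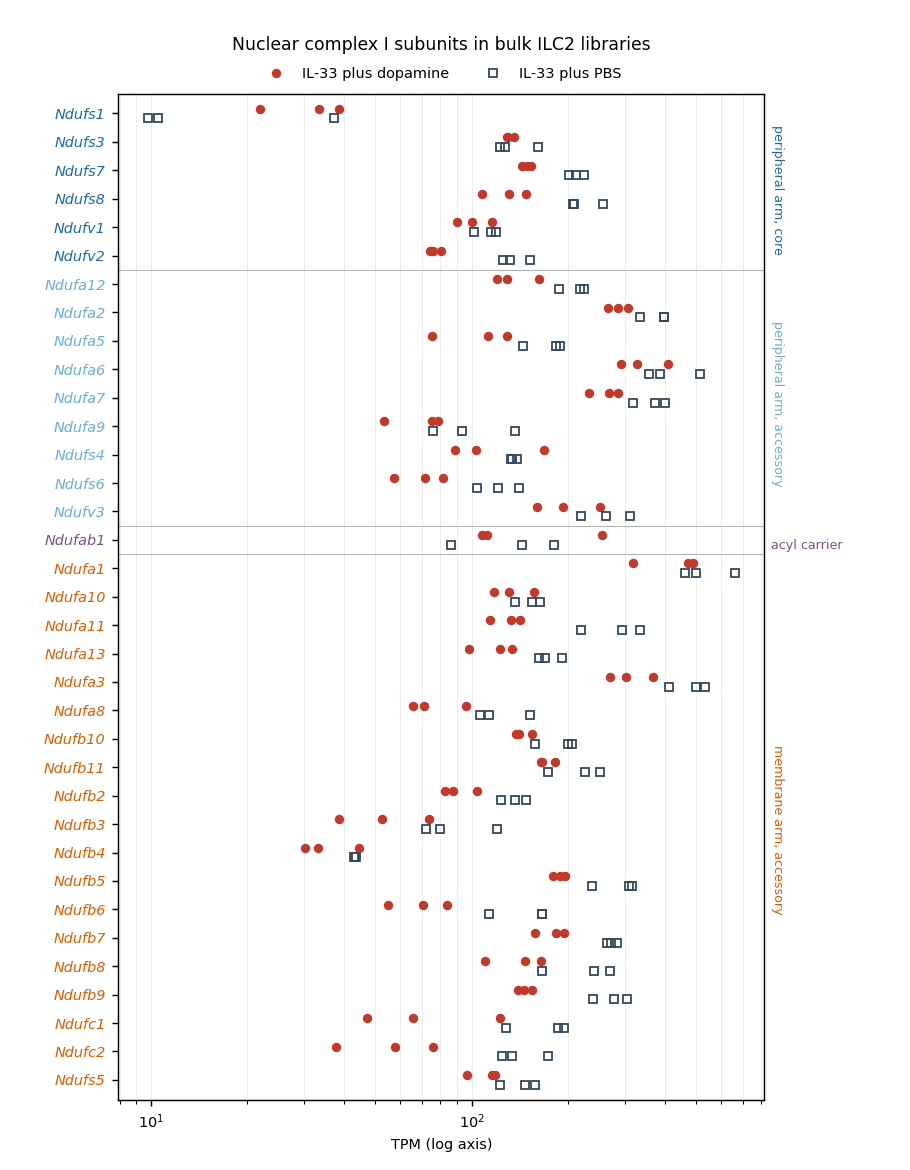
TPM on a log axis of the 35 nuclear complex I subunits in each bulk library, with filled red circles for IL-33 plus dopamine and open squares for IL-33 plus PBS, grouped by the arm of the complex. In 22 members all 3 dopamine libraries lie left of all 3 PBS libraries, and in none do they all lie right of them.

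The core of the peripheral arm carries the electrons, and 3 of its 6 nuclear members were lower with dopamine without overlap, with a median relative change of -0.82. Ndufv2, an iron-sulfur subunit of the NADH-oxidizing tip, had 80.6, 76.1 and 74.4 TPM in dopamine libraries and 152, 132 and 125 TPM in PBS libraries. All dopamine values lay below all PBS values, with a log2 fold change of -0.81 ± 0.23 (SE, limma adjusted p = 0.105) and a relative change of -1.31. Ndufs8, which holds iron-sulfur clusters close to the ubiquinone site, had 131, 108 and 148 TPM with dopamine and 208, 256 and 207 TPM with PBS. Its groups did not overlap either, and its log2 fold change was -0.80 ± 0.23 (SE, limma adjusted p = 0.103). Ndufs7, the subunit that hands electrons to ubiquinone, had 153, 149 and 143 TPM with dopamine and 201, 225 and 212 TPM with PBS. The spread within each group was small beside the difference of -0.51 ± 0.20 on the log2 scale (SE, limma adjusted p = 0.167).

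The other 3 core members overlapped between groups. Ndufs3 averaged 132 ± 3.64 TPM with dopamine and 137 ± 20.8 TPM with PBS, and Ndufv1, which binds NADH, averaged 102 ± 12.7 and 112 ± 8.94 TPM (SD, n = 3 each). The relative change of Ndufs3, -0.54, was 0.18 with detected genes as a term. Ndufs1, the large iron-sulfur subunit of the arm, had 38.7, 33.6 and 21.9 TPM with dopamine and 37.3, 10.5 and 9.79 TPM with PBS. PBS library 1 stood among the dopamine libraries for this gene, and the log2 fold change was 0.91 ± 0.53 (SE, limma adjusted p = 0.299). Without PBS library 1 it was 1.5 with an adjusted p of 0.0441 by limma, and relative to all genes it ranged from -0.12 with detected genes as a term to 0.84 without PBS library 1. Ndufs1 had the lowest mean TPM of the nuclear members, and 248 of its 2819 exon bases overlap those of Ino80dos, a non-coding gene on the opposite strand, whose reads cannot be told apart from its own where the libraries keep no strand.

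The 9 accessory subunits of the peripheral arm all had negative log2 fold changes, 5 of them without overlap, and a median relative change of -0.97. Ndufs6, a zinc-binding subunit added late in assembly, had 71.8, 81.2 and 57.3 TPM with dopamine and 121, 141 and 104 TPM with PBS. The groups were well apart, with a log2 fold change of -0.79 ± 0.26 (SE, limma adjusted p = 0.130). Ndufa12, another subunit of late assembly, had 162, 120 and 129 TPM with dopamine and 218, 224 and 187 TPM with PBS. Ndufa5 had 129, 75.2 and 113 TPM with dopamine and 188, 183 and 144 TPM with PBS, and Ndufa7 had 268, 232 and 286 TPM with dopamine and 400, 373 and 319 TPM with PBS. All 3 were lower without overlap, with log2 fold changes of -0.62 ± 0.22, -0.72 ± 0.27 and -0.47 ± 0.19 (SE) and limma adjusted p of 0.147, 0.154 and 0.177. The fifth was Ndufa2, at 286 ± 21.1 TPM with dopamine and 377 ± 36.1 TPM with PBS (SD, n = 3 each). Ndufs4, Ndufv3, Ndufa6 and Ndufa9 overlapped, with relative changes between -1.03 and -0.72; those of Ndufa6 and Ndufa9, -0.78 and -1.03, were 0.03 and 0.07 with detected genes as a term.

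Ndufab1, the mitochondrial acyl carrier protein, which also serves fatty acid and iron-sulfur cluster synthesis, did not share the direction in deposited TPM. It had 112, 254 and 108 TPM with dopamine and 144, 181 and 86.3 TPM with PBS. Dopamine library 2 was the highest and the rest were mixed, with a log2 fold change of 0.15 ± 0.38 (SE, limma adjusted p = 0.823). Its relative change of -0.35 was 0.05 with quantile normalization, 0.07 without PBS library 2 and 0.41 with detected genes as a term.

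The accessory subunits of the membrane arm had the lowest median relative change of the structural groups, -1.11: all 19 had negative log2 fold changes, 14 without overlap. Ndufa11, a subunit at the edge of the membrane arm, had 142, 114 and 133 TPM with dopamine and 294, 336 and 220 TPM with PBS. Every PBS library lay well above the highest dopamine library, and the log2 fold change was -1.10 ± 0.23 (SE, limma adjusted p = 0.0832). Ndufb9, which docks the acyl carrier on the membrane arm, had 154, 146 and 139 TPM with dopamine and 278, 306 and 240 TPM with PBS. The dopamine libraries lay close together and apart from PBS, with a log2 fold change of -0.90 ± 0.20 (SE, limma adjusted p = 0.0832).

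Ndufc2, a small membrane subunit, had 37.8, 75.8 and 57.6 TPM with dopamine and 133, 173 and 125 TPM with PBS. It had the lowest ratio of mean TPM among the 22 members without overlap, 0.398, and its log2 fold change was -1.36 ± 0.31 (SE, limma adjusted p = 0.0832). Ndufb6 had 84.2, 54.7 and 70.7 TPM with dopamine and 166, 166 and 113 TPM with PBS, a log2 fold change of -1.07 ± 0.28 (SE, limma adjusted p = 0.0962) without overlap. For Ndufb6, 257 of 659 exon bases overlap Smim27 on the opposite strand, and for Ndufb9, 201 of 704 overlap the predicted gene Gm49356 on its own strand; such reads cannot be told apart here. Ndufa8, a subunit on the intermembrane side, had 96.3, 71.0 and 65.7 TPM with dopamine and 113, 152 and 106 TPM with PBS, also without overlap.

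The other 9 members of this group without overlap were Ndufa3, Ndufa13, Ndufb2, Ndufb5, Ndufb7, Ndufb8, Ndufb10, Ndufc1 and Ndufs5. Among all 22 members without overlap the ratio of mean TPM, dopamine over PBS, ran up to 0.775 in Ndufs5. The 5 that overlapped were Ndufa1, Ndufa10, Ndufb3, Ndufb4 and Ndufb11, with relative changes between -1.22 and -0.66. Ndufb4 shares 390 identical bases with the pseudogene Ndufb4c, which was listed at 0, 0 and 13.5 TPM with dopamine and 41.8, 2.91 and 24.2 TPM with PBS. With these added, Ndufb4 came to 44.5, 30.3 and 46.8 TPM with dopamine and 85.5, 46.3 and 67.3 TPM with PBS, and its relative change was -1.17 in place of -0.78.

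Because most nuclear members were lower together, their promoters were read from the RefSeq table (GRCm38.p6), 250 bases before to 50 bases after the transcription start. It held 34 promoters of 32 nuclear members. The factor NRF1 drives many genes of the respiratory chain, and its motif, GCGCA, any base and GCGC, searched on both strands, stood in promoters of 7 of the 32 members (Ndufs6, Ndufa5, Ndufa6, Ndufa8, Ndufa11, Ndufb4 and Ndufs5) and in those of 5.19% of all 27025 genes in the table. The YY1 motif AAGATGGCG stood in those of 5 members and 1.64% of all genes, the ETS motif CCGGAAG in those of 4 members and 9.93%, the GC box GGGCGG in those of 15 and 38.2%, and TATAAA in those of 4 and 15.7%. Counted over promoters, of which a gene can have several, the shares over all 32851 were 4.60%, 1.4%, 8.86%, 35.7% and 13.6% in the same order. Each motif was searched on both strands and on its own, so matches of different motifs may overlap. Member promoters had a median GC content of 59.2%, against 52.7% over all promoters. Shown here are promoters of 3 members that were lower without overlap and that differ in these motifs, with NRF1 and YY1 motifs in capitals. In Ndufa11 (chr17:56717512-56717811, plus strand) the NRF1 motif, which is its own reverse complement there, begins 60 bases before the start. In Ndufs6 (chr13:73328433-73328732, minus strand) the NRF1 motif, on the opposite strand, begins 16 bases before the start and the YY1 motif 33 bases after it. Ndufv2 (chr17:66101510-66101809, minus strand) holds neither, only a GC box among these motifs.
Ndufa11: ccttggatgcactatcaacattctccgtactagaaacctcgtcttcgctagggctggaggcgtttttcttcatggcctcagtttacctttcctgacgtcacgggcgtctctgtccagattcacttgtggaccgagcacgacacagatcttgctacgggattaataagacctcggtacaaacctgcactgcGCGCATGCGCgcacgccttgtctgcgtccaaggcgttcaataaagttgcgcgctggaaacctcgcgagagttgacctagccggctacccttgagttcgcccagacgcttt
Ndufs6: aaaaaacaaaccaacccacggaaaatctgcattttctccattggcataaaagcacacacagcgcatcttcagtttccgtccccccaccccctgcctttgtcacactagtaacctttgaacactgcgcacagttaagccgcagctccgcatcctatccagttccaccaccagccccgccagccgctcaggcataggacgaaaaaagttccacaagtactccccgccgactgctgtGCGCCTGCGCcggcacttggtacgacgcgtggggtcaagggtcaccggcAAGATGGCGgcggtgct
Ndufv2: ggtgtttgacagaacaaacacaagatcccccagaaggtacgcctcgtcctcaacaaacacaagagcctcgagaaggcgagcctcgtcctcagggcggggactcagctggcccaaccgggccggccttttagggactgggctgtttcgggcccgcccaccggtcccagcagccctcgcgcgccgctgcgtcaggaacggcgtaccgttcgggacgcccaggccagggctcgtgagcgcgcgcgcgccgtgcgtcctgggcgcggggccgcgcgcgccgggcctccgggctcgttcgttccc
Members with and without the NRF1 motif were both among the 22 without overlap; a match is a description of letters and not of binding.

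The 7 mt-Nd subunits form the proton-pumping core of the membrane arm, and none of the 6 tested was lower or higher without overlap in bulk; their median relative change was -0.61. mt-Nd1, at the entrance for ubiquinone, had 4386, 3667 and 3841 TPM with dopamine and 4742, 5017 and 4300 TPM with PBS. Dopamine library 1 lay above PBS library 3 and the other dopamine libraries below all PBS libraries, and the log2 fold change was -0.24 ± 0.12 (SE, limma adjusted p = 0.233). mt-Nd2, an antiporter-like subunit, had 168, 158 and 160 TPM with dopamine and 175, 241 and 163 TPM with PBS, a log2 fold change of -0.23 ± 0.23 (SE, limma adjusted p = 0.528). Its relative change of -0.72 was 0.07 with detected genes as a term. With dopamine, mt-Nd2 averaged 162 TPM in bulk against 3964 TPM for mt-Nd1. In the single cells with IL-33 plus dopamine, mt-Nd2 averaged 2648 CPM and mt-Nd1 2823 CPM. Why the bulk level of mt-Nd2 stood so far below that of mt-Nd1 was not tested. mt-Nd4, another antiporter-like subunit, had 980, 848 and 734 TPM with dopamine and 998, 521 and 749 TPM with PBS, and was mixed between groups, at 0.21 ± 0.23 (SE, limma adjusted p = 0.573). Its relative change of -0.28 was 0.19 with quantile normalization. The pseudogene Gm28439 on chromosome 1 is identical to 876 bases of mt-Nd4 and was listed at 0 TPM in every bulk library.

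mt-Nd5, the outermost of the antiporter-like subunits, was the mt-Nd gene with the highest relative change. It had 1052, 916 and 845 TPM with dopamine and 958, 315 and 412 TPM with PBS. PBS libraries 2 and 3 were far below the rest and PBS library 1 lay among the dopamine libraries, as it did for Ndufs1. The log2 fold change was 0.90 ± 0.34 (SE, limma adjusted p = 0.159), and 1.37 with an adjusted p of 0.0165 by limma without PBS library 1. Its relative change of 0.41 was -0.08 with detected genes as a term. mt-Nd6, whose message is read from the opposite strand to the other mt-Nd genes and which shares 14 bases with the end of mt-Nd5 on the other strand, had 191, 177 and 166 TPM with dopamine and 276, 139 and 143 TPM with PBS. Those groups overlapped, at 0.01 ± 0.28 (SE, limma adjusted p = 0.988).

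The values of mt-Nd4l and mt-Nd3 in bulk stood with copies on chromosome 1. mt-Nd4l, a short subunit of the membrane core, was listed at 0 TPM in all 6 libraries, while the pseudogene Gm10222 (chr1:24612407-24612700, minus strand) was listed at 1922, 833 and 979 TPM with dopamine and 1724, 731 and 922 TPM with PBS. The GENCODE M21 transcript of mt-Nd4l (GRCm38, chrM:9877-10173, plus strand) is given here because 294 of its 297 bases, in capitals, are identical in Gm10222.
mt-Nd4l: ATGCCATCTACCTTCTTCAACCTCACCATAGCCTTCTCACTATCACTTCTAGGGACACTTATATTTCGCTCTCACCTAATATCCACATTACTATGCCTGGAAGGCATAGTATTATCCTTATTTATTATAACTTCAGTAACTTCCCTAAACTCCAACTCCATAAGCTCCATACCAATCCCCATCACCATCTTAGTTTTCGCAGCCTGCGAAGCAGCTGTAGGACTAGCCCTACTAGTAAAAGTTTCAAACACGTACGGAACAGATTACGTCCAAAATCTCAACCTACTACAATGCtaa
The end of mt-Nd4l also lies inside mt-Nd4: both messages share 7 bases, shown in capitals in the last 30 bases of mt-Nd4l (chrM:10144-10173) and the first 30 of mt-Nd4 (chrM:10167-10196).
mt-Nd4l, last bases: gtccaaaatctcaacctactacaATGCTAA
mt-Nd4, first bases: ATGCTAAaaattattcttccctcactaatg
With Gm10222 added, mt-Nd4l had a log2 fold change of 0.14 (limma adjusted p = 0.814), with overlapping groups.

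mt-Nd3, a subunit of the hinge between the arms, was listed at 529, 0 and 233 TPM with dopamine and 189, 522 and 169 TPM with PBS. Its copy Gm28438 was listed at 1629, 1688 and 1242 TPM with dopamine and 1428, 2278 and 2090 TPM with PBS. Dopamine library 2, with mt-Nd3 at 0, had the highest value of the copy among dopamine libraries. Gm28438 (chr1:24612775-24613119, minus strand) matches 345 of the 348 bases of mt-Nd3 with a single substitution, T3C, counted from the first base of mt-Nd3. The first bases of both transcripts, chrM:9459-9476 and chr1:24613102-24613119, show it in capitals.
mt-Nd3: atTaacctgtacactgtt
Gm28438: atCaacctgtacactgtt
The sum of both came to 2157, 1688 and 1475 TPM with dopamine and 1617, 2800 and 2259 TPM with PBS. These groups overlapped, with a log2 fold change of -0.31 (limma adjusted p = 0.370), where mt-Nd3 alone had -2.36 ± 1.83 (SE, adjusted p = 0.426). Neither copy is listed in the single-cell table, where both genes had UMIs in every hashtag.

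Shorter transcripts were lower with dopamine across the bulk data, and most nuclear members are short. Among 398 other genes with a median annotated transcript under 600 bases the median relative change was -0.78, and among the 11 nuclear members of that length it was -1.12. For 600 to under 1000 bases it was -0.72 in 980 other genes and -1.11 in 13 members, and for 1000 to under 1500 bases -0.49 in 1389 genes and -1.06 in 5 members. For 1500 to under 2500 bases it was -0.15 in 2835 genes and -0.66 in 5 members. Ndufs1, the one member of 2500 bases or more, had 0.41 against 0.31 in 5391 genes. Spearman's rho of length with the bulk change was 0.38 over the 35 nuclear members and 0.43 over 10993 other genes, which share libraries and are not independent. The part of transcript length in the members' bulk change was not tested further.

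**Figure D2:**
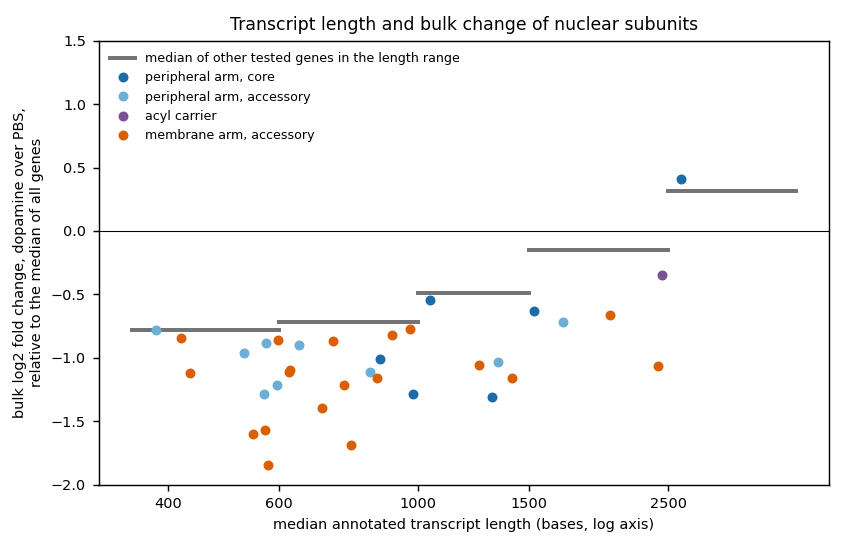
Bulk log2 fold change of dopamine over PBS, relative to the median of all genes, against median annotated transcript length on a log axis; each point is a nuclear subunit, coloured by group, and the grey lines are medians of other tested genes in 5 length ranges. Members of under 600 bases have a median of -1.12 and the grey line there stands at -0.78.

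Genes around complex I were read from lists of the pathway. Of the 39 nuclear subunits of complexes II to V, 38 were tested and 0 passed by limma. At an unadjusted p under 0.05, 19 were lower and 0 higher, where 4.62% of all genes were lower and 19.5% higher. Without overlap, 25 or 65.8% were lower, against 6.57% of all genes, and the median relative change was -1.02. Cox8a, of cytochrome c oxidase, had 888, 762 and 916 TPM with dopamine and 1191, 1620 and 1355 TPM with PBS, a log2 fold change of -0.69 ± 0.16 (SE, limma adjusted p = 0.0832) without overlap. The ATP synthase genes Atp5e and Atp5g3 had -1.20 ± 0.29 and -0.99 ± 0.25, and Cox6b1 had -0.61 ± 0.15 (log2, SE, limma adjusted p of 0.0898, 0.0960 and 0.0960). The complex I median relative change of -1.01 lay next to that of these other complexes.

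Complex I assembly factors, which build the complex but do not stay in it, had a median relative change of -0.55, closer to other genes than that of the subunits. Still, 14 of the 16 lay below the median of all genes and 2 above it. The part of transcript length in this list was not tested. Of 16 tested, 0 passed and 0 had an unadjusted p under 0.05, where 4.62% of all genes were lower and 19.5% higher. Only Ndufaf7, 1 of 16 or 6.25%, was lower without overlap, against 6.57% of all genes. Ndufaf7 had 27.4, 24.4 and 33 TPM with dopamine and 43.6, 39.2 and 38.0 TPM with PBS, at -0.50 ± 0.31 (log2, SE, limma adjusted p = 0.332). Tmem126a, Ndufaf5 and Foxred1, the others of the 4 with the smallest p, had -0.80, -0.80 and 0.60 (log2, limma adjusted p of 0.274, 0.359 and 0.452). Of 10 nuclear regulators of mitochondrial genes, 8 were tested and 0 passed, 2 were higher at an unadjusted p under 0.05, or 2 of 8 where 19.5% of all genes were, and the median relative change was 0.35. Nrf1, which encodes the factor of the motif above, had 62.6, 68.5 and 74.2 TPM with dopamine and 54.7, 29.2 and 27.2 TPM with PBS, at 0.94 ± 0.34 (log2, SE, limma adjusted p = 0.150), higher without overlap. So were 2 of the 8 regulators tested, or 25%, near the 23.5% of all genes that were. Polrmt, the mitochondrial RNA polymerase, had 18.5, 15.6 and 19.7 TPM with dopamine and 12.7, 3.34 and 5.17 TPM with PBS, at 1.4 ± 0.52 (SE, adjusted p = 0.155). Gabpa and Pprc1 came next by p, at 1.4 and 1.09 (log2, limma adjusted p of 0.222 and 0.310). Of the 6 other protein genes of mitochondrial DNA, 5 were tested and 0 passed, with a median relative change of -0.91. At an unadjusted p under 0.05, 3 of the 5 were lower, where 4.62% of all genes were. mt-Atp6 had 5178, 7068 and 3075 TPM with dopamine and 8353, 9824 and 6751 TPM with PBS, at -0.77 ± 0.26 (log2, SE, limma adjusted p = 0.134). mt-Cytb, mt-Co2 and mt-Co1 had -0.36, -0.41 and -0.20 (log2, limma adjusted p of 0.154, 0.203 and 0.333).

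In the single cells, complex I transcripts differed little between IL-33 plus dopamine and IL-33. UMIs were summed per hashtag, scaled to counts per 1000000 (CPM) and tested with edgeR. The 35 nuclear members summed to 4225, 4232 and 4046 CPM in hashtags 6, 7 and 8 of IL-33 plus dopamine, against 4208, 4036 and 4362 CPM in hashtags 3, 4 and 5 of IL-33. The groups were intermixed, at 4167 ± 105 and 4202 ± 163 CPM (SD, n = 3 each). Each member rested on at least 28 UMIs in every hashtag.

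None of the 42 members passed by edgeR, where 3 of 10559 genes did (0.0284%), and none passed by DESeq2; at an unadjusted p under 0.05, 1 member was lower and 0 were higher by either tool, where 4.66% of all genes were lower and 4.81% higher by edgeR. The median log2 fold change of the members was 0.00, with single members between -0.25 and 0.17. One member was lower without overlap, against 6.93% of all genes, and none higher, against 7.81%. Among the 35 nuclear members the 95% intervals of the log2 fold change reached from -0.42 at the lowest to 0.36 at the highest, and lay in the median 0.17 to either side of the value. The bulk change relative to all genes lay below the single-cell interval in 34 of the 35, and the bulk change in deposited TPM in 32. These counts take the bulk value without its own 95% interval, which lay in the median 0.52 to either side. In deposited TPM the bulk interval of Ndufa1, -0.85 to 0.15, overlapped its single-cell interval of -0.27 to 0.10. That of Ndufc2, -2.04 to -0.67, did not overlap -0.22 to 0.12. Bulk and single-cell data differ in the sex of the mice, the protocol and the cells, and the difference between them was not tested.

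**Figure D3:**
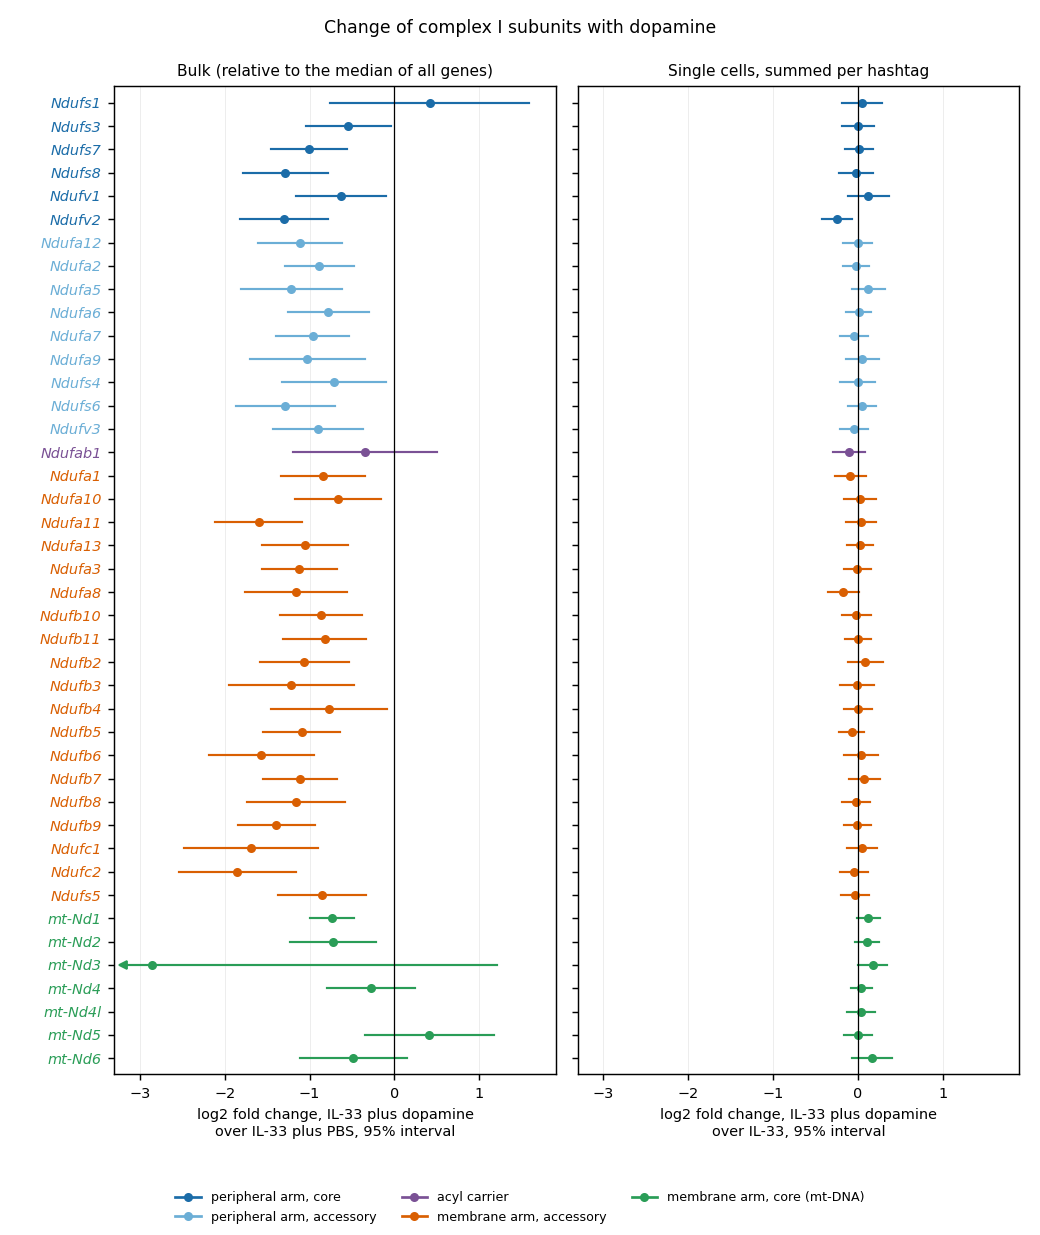
Log2 fold change of each complex I subunit with its 95% interval, left in bulk as IL-33 plus dopamine over IL-33 plus PBS relative to the median of all genes, right in single cells as IL-33 plus dopamine over IL-33, coloured by group; the arrow marks an interval that runs off the axis, and mt-Nd4l has no bulk value. Bulk points have a median of -1.01, and single-cell points lie between -0.25 and 0.17.

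The member without overlap was Ndufv2, also among the lowest of the core in bulk. It had 80.3, 78.0 and 68.8 CPM with IL-33 plus dopamine and 86.5, 89.6 and 93.7 CPM with IL-33. Its log2 fold change was -0.25 ± 0.08 (SE, 95% interval -0.42 to -0.07, edgeR adjusted p = 0.410). Ndufv1, its partner at the tip of the arm, had 63.1, 53.1 and 62.7 CPM with IL-33 plus dopamine and 51.7, 49.9 and 62.3 CPM with IL-33, overlapping, at 0.12 ± 0.11 (SE, edgeR adjusted p = 0.750).

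Of the accessory subunits, Ndufa8 had 68.2, 72.0 and 64.2 CPM with IL-33 plus dopamine and 78.3, 70.7 and 80.7 CPM with IL-33. The groups overlapped, at -0.17 ± 0.09 (SE, edgeR adjusted p = 0.553). Ndufa5, Ndufa7, Ndufb5 and Ndufab1 overlapped too, with log2 fold changes of 0.12, -0.05, -0.07 and -0.11 (edgeR adjusted p of 0.685, 0.865, 0.753 and 0.711). Ndufa11, Ndufb9 and Ndufc2, the members with the smallest p in bulk, had 0.04 (95% interval -0.14 to 0.22), -0.01 (-0.17 to 0.15) and -0.05 (-0.22 to 0.12) in the single cells.

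All 7 mt-Nd genes had positive log2 fold changes with dopamine under IL-33, between 0.00 and 0.17, and overlapped between treatments. Of all genes, 49.9% had negative ones, and of the 6 other protein genes of mitochondrial DNA 1 was higher and 5 were lower. mt-Nd1 had 2701, 2842 and 2927 CPM with IL-33 plus dopamine and 2467, 2617 and 2719 CPM with IL-33. The highest IL-33 hashtag stood above the lowest dopamine hashtag, at 0.12 ± 0.06 (SE, edgeR adjusted p = 0.558). mt-Nd3 had 651, 771 and 675 CPM with IL-33 plus dopamine and 584, 625 and 656 CPM with IL-33. Dopamine hashtag 6 stood below IL-33 hashtag 5 and the others did not overlap, at 0.17 ± 0.08 (SE, edgeR adjusted p = 0.528). mt-Nd2 had 0.10, mt-Nd4 0.04, mt-Nd4l 0.04, mt-Nd5 0.00 and mt-Nd6 0.17 on the log2 scale (edgeR adjusted p between 0.618 and 0.998).

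The lists around complex I gave 0 genes that passed by edgeR in this comparison. The median log2 fold change was -0.05 in 39 nuclear subunits of complexes II to V, of which 32 were lower and 1, Uqcrh, had an unadjusted p under 0.05 (-0.15, edgeR adjusted p = 0.495). It was -0.04 in 16 assembly factors, of which 1, Ndufaf1, had an unadjusted p under 0.05 (-0.64, edgeR adjusted p = 0.495), and -0.01 in 9 tested regulators and in the 6 other mitochondrial genes. Over all genes, 49.9% were lower, and 4.66% were lower at an unadjusted p under 0.05 by edgeR. Nrf1 had a log2 fold change of -0.02 (edgeR adjusted p = 0.971). T cell markers, higher with dopamine in bulk, summed to 603 to 656 CPM with IL-33 plus dopamine and 633 to 786 CPM with IL-33. Of the 6 tested here, 5 had negative log2 fold changes, and 3 were lower without overlap, where 6.93% of all genes were. By edgeR 1 of them passed as lower (adjusted p = 0.0014), where 0.0284% of all genes passed.

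IL-33 against PBS asked what the alarmin did to the same genes, with 3 hashtags against 2. Its IL-33 hashtags are those of the comparison of dopamine under IL-33. A value high or low in them moves the 2 comparisons in opposite directions, so opposite signs between them are not independent results. Nuclear members summed to 4208, 4036 and 4362 CPM with IL-33 and 4038 and 4244 CPM with PBS, and overlapped. The mt-Nd genes summed to 8319, 8721 and 9095 CPM with IL-33 and 9547 and 9762 CPM with PBS, without overlap. None of the 42 members passed by edgeR, where 74 of 10506 genes did (0.704%), and none by DESeq2. At an unadjusted p under 0.05, 1 member was higher and 5 were lower by edgeR, and 1 and 3 by DESeq2, where edgeR gave 6.56% of all genes higher and 6.87% lower. Without overlap, 5 members or 11.9% were higher (20.9% of all genes) and 3 or 7.14% were lower (13.6%).

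All 7 mt-Nd genes had negative log2 fold changes with IL-33, between -0.24 and -0.11, as had 50.3% of all genes. By edgeR 4 of the 7 had an unadjusted p under 0.05. mt-Nd1 had 2467, 2617 and 2719 CPM with IL-33 and 2932 and 3041 CPM with PBS. All IL-33 hashtags lay below both PBS hashtags, at -0.24 ± 0.055 (SE, edgeR adjusted p = 0.0631). mt-Nd2 had 2356, 2504 and 2565 CPM with IL-33 and 2778 and 2837 CPM with PBS. It did not overlap either, at -0.22 ± 0.054 (SE, edgeR adjusted p = 0.0785). Without a filter on low counts, mt-Nd1 passed by edgeR at -0.21 with an adjusted p of 0.0386, where 322 of 15034 genes passed (2.14%).

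The remaining mt-Nd genes overlapped between IL-33 and PBS. mt-Nd3 had 584, 625 and 656 CPM with IL-33 and 654 and 694 CPM with PBS, at -0.16. mt-Nd4 had 2349, 2390 and 2521 CPM with IL-33 and 2567 and 2509 CPM with PBS, at -0.11. mt-Nd4l had 121, 127 and 132 CPM with IL-33 and 130 and 152 CPM with PBS, at -0.21. In each of these 3 the highest IL-33 hashtag lay above the lowest PBS hashtag (edgeR adjusted p of 0.372, 0.421 and 0.363). mt-Nd5 had 407, 427 and 467 CPM with IL-33 and 454 and 489 CPM with PBS, and mt-Nd6 34.2, 31.2 and 35.1 CPM with IL-33 and 32.9 and 39.0 CPM with PBS. Both had lower means with IL-33, at -0.16 and -0.17 (edgeR adjusted p of 0.411 and 0.649). Other markers and the mix of clusters differed between the same hashtags. T cell markers summed to 633 to 786 CPM with IL-33 and 484 to 587 CPM with PBS, NK cell and ILC1 markers to 155 to 166 and 187 to 197 CPM, and epithelial markers to 97.9 to 104 and 117 to 134 CPM, each without overlap. Cluster 0, which had the highest mt-Nd level, held 16.1% to 24.4% of the cells of IL-33 hashtags and 32.1% to 32.5% of those of PBS hashtags. Within clusters the mean mt-Nd sum with IL-33 was below that with PBS in each of the 6, which was not tested. In cluster 0 it was 10114 against 10487 CPM, with hashtags at 9833 to 10280 and 10377.5 to 10596 CPM, without overlap. In cluster 1 it was 8922 against 9725 CPM, with hashtags at 8389 to 9658 and 9371 to 10078.5 CPM, overlapping. Cluster 5 held only 31 PBS cells. The part of the markers and of the cluster mix in the values of the mt-Nd genes was not tested. The other mitochondrial genes were split, 3 higher and 3 lower: mt-Co1 had 0.15 (edgeR adjusted p = 0.233), mt-Atp8 -0.28 (adjusted p = 0.256), mt-Cytb -0.07 and mt-Co3 0.04.

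**Figure D4:**
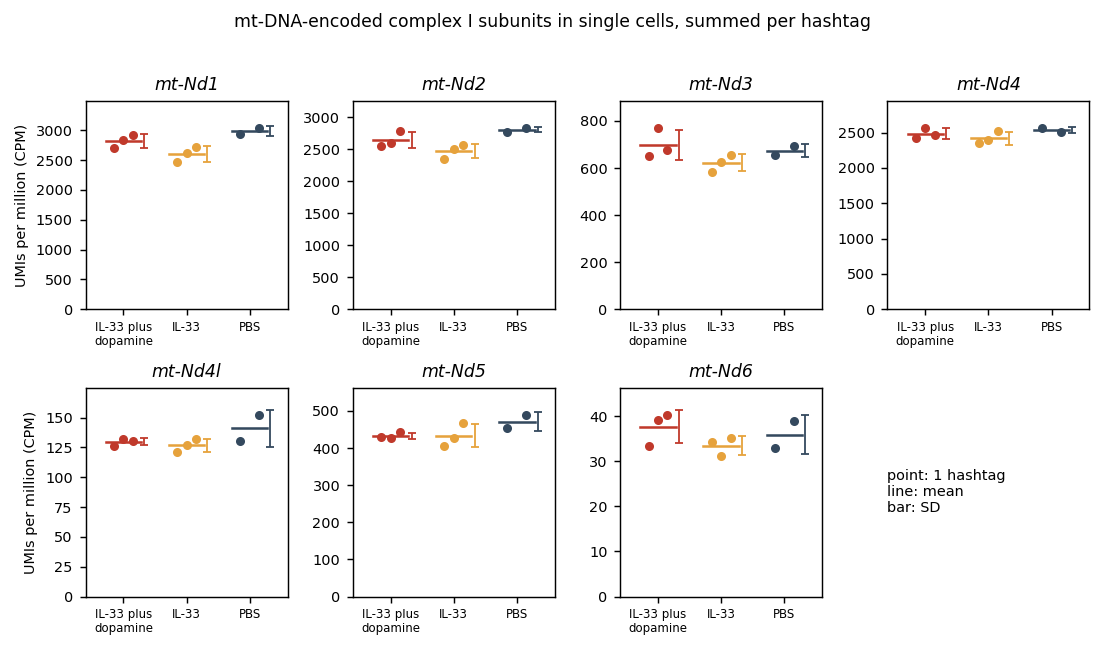
CPM of the 7 mt-Nd genes in each hashtag, from left to right IL-33 plus dopamine, IL-33 and PBS; points are hashtags, lines means and bars SD. For mt-Nd1 and mt-Nd2 the 3 IL-33 hashtags lie below both PBS hashtags, and the dopamine hashtags overlap those of IL-33.

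Among nuclear members Ndufa8 had the smallest p of IL-33 against PBS. It had 78.3, 70.7 and 80.7 CPM with IL-33 and 60.1 and 52.7 CPM with PBS, higher in every IL-33 hashtag, at 0.43 ± 0.12 (SE, edgeR adjusted p = 0.121); without a filter it passed at 0.46 with an adjusted p of 0.0233. Ndufa5 went the other way, with 66.9, 68.8 and 77.1 CPM with IL-33 and 99.5 and 84.3 CPM with PBS, lower in every IL-33 hashtag, at -0.38 ± 0.12 (SE, edgeR adjusted p = 0.151). Ndufv2 had 86.5, 89.6 and 93.7 CPM with IL-33 and 75.8 and 78.6 CPM with PBS, higher without overlap, at 0.18 ± 0.10 (SE, edgeR adjusted p = 0.492). Ndufa6, Ndufb5 and Ndufs7 were also higher without overlap, at 0.07, 0.10 and 0.03, and Ndufs8, Ndufa9, Ndufb9 and Ndufab1 overlapped, at 0.16, -0.19, -0.15 and -0.06 (edgeR adjusted p between 0.515 and 0.932 for these 7).

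IL-33 plus dopamine against PBS uses the same 2 PBS hashtags and the dopamine hashtags of the comparison under IL-33. Its values are therefore not independent of the ones above. None of the 42 members passed by edgeR, where none of 10612 genes did (0.0%), and none by DESeq2; at an unadjusted p under 0.05, 1 member was lower (2.53% of all genes) and 0 higher (2.61%) by edgeR and 0 were either by DESeq2, where 545 genes differed by edgeR and 212 by DESeq2. Without overlap, 5 members were higher (14.9% of all genes) and 5 lower (9.09%). Ndufa5 had -0.27 in this comparison and -0.38 in IL-33 against PBS, Ndufa8 0.26 and 0.43, and Ndufv2 -0.07 and 0.18. mt-Nd1 had -0.12 with dopamine and IL-33 and -0.24 with IL-33, mt-Nd5 -0.16 and -0.16, and Ndufab1 -0.17 and -0.06 (edgeR adjusted p of 0.927 or more for each in the comparison with dopamine).

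The authors' 6 clusters differed in the level of complex I, given here as a description, since the clusters were made from the same genes. Nuclear members summed to 4549 ± 141 CPM in cluster 1 and 4448 ± 156 in cluster 4 but 3700 ± 125 in cluster 3 (mean and SD of 8 hashtags). Clusters 5, 0 and 2 lay between them, at 4375 ± 265, 4162 ± 120 and 3859 ± 138 CPM, and the ranges of neighbours in this order overlapped. The mt-Nd genes had another order: 10271 ± 299 CPM in cluster 0, 9325 ± 570 in cluster 1, 8903 ± 306 in cluster 2, 8881 ± 350 in cluster 3, 8769 ± 351 in cluster 4 and 8382 ± 920 in cluster 5. Of the 7 mt-Nd genes 6 had their highest mean in cluster 0, whereas 1 nuclear member did; 14 nuclear members were highest in cluster 1, 10 in cluster 5, 9 in cluster 4 and 1 in cluster 3. For single members the highest cluster mean was at most 1.54 times the lowest, in Ndufa8, with 88.3 CPM in cluster 5 and 57.3 CPM in cluster 3. Cluster 5 held 1.76% to 22% of the cells of a hashtag, so sums over a hashtag also carry its mix of clusters.

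Within each cluster IL-33 plus dopamine was set against IL-33 over the same hashtags. No member passed by edgeR or by DESeq2 in any of the 6 clusters, where the share of all genes that passed by edgeR was 0.0388%, 0.075%, 0.0%, 0.0%, 0.0548% and 0.266% in clusters 0 to 5. At an unadjusted p under 0.05, edgeR gave 2 members each in clusters 2 and 4, where 5.89% and 6.5% of all genes had such a p, and none in the others, so the members' counts by edgeR lay below the share over all genes. DESeq2 gave 1 in cluster 2, where 1.78% of all genes had such a p. In cluster 2 Ndufv2 had 63.9, 60.1 and 62.0 CPM with IL-33 plus dopamine and 81.0, 90.7 and 77.8 CPM with IL-33. It did not overlap there, at -0.43 ± 0.14 (SE, edgeR adjusted p = 0.592), and it had -0.06, -0.19, -0.11, 0.00 and -0.37 in clusters 0, 1, 3, 4 and 5. mt-Nd3 had 0.16 in cluster 2, Ndufa11 0.35 and Ndufb2 -0.37 in cluster 4 (edgeR adjusted p of 0.817, 0.718 and 0.746). The members' median log2 fold change ran from -0.04 in cluster 5 to 0.04 in clusters 1 and 4.

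**Figure D5:**
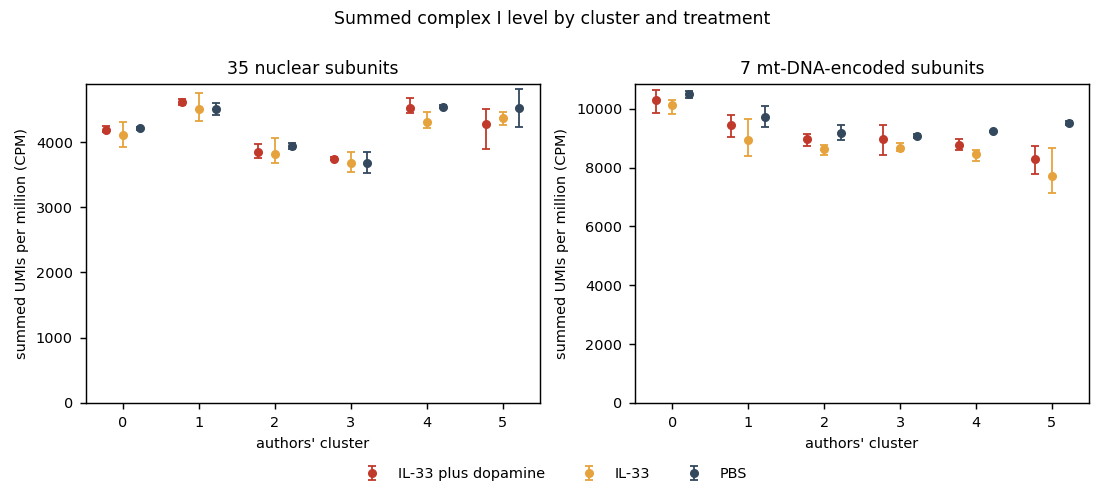
Summed CPM of the 35 nuclear members on the left and the 7 mt-Nd genes on the right in each of the authors' 6 clusters, for IL-33 plus dopamine, IL-33 and PBS; points are means over hashtags and bars run from the lowest to the highest hashtag. Nuclear means are highest in cluster 1 under IL-33 plus dopamine and under IL-33 but in cluster 4 under PBS, they are lowest in cluster 3 under all 3 treatments, and mt-Nd means are highest in cluster 0 under all 3.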

How the data were processed

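Bulk values are TPM that the authors deposited for 6 Smart-Seq2 libraries; single-cell values are UMI counts per gene and cell that the authors deposited with a hashtag, treatment and cluster for each cell. The submitters' processing notes name cutadapt 2.10, STAR 2.7.5c, RSEM 1.3.3, Cell Ranger 6.1.1, Seurat 4.0.2 and mm10; their settings are not given in the sources used here. Doublet treatment is likewise not given, and no doublet caller was run. TPM were tested with limma 3.58.1 (trend) on log2(TPM + 1), a scale that understates changes of low genes, over the 11222 genes that reached 1 TPM in 3 or more libraries. UMI counts were summed per hashtag, or per hashtag and cluster, and compared by the quasi-likelihood test of edgeR 4.0.16 (TMM, filterByExpr); DESeq2 1.42.0 was an alternative, all in R 4.3.3. All tests were two-sided, adjusted by Benjamini-Hochberg over all genes tested in a comparison, with a call at an adjusted p under 0.05; the scripts were tested on simulated data. A fold change is IL-33 plus dopamine over its control, or IL-33 over PBS. UMI intervals cover the spread between hashtags. For edgeR the SE was derived as the absolute log2 fold change divided by the root of the test's F statistic. The 95% intervals were built from this SE and are not a direct output of the tool. Copies were found with BLAST 2.17.0+ among GENCODE M21 transcripts, at 95% identity or more over at least 50% of either transcript. Values are given per library for the 7 mt-Nd genes, up to 4 members per structural group with the smallest bulk p, up to 2 with the smallest p in a single-cell comparison, members against the median, and up to 4 genes per list. Other members are given by counts, except those named for a copy, an overlap or groups that do not overlap. The members, lists and rules were chosen with earlier results of these data known. Correlations of equally numbered bulk libraries after removal of group means were 0.0186, -0.0710 and -0.00177, so numbers were not taken as pairs.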

Additional observations from a re-analysis of the deposited data

How the results depend on the processing

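The bulk count of members that passed was 0 under all bulk settings except limma with library weights, which gave 16, and leaving out single libraries, which gave 0 to 6, the 6 without PBS library 1. The members' median relative change of -1.01 was negative throughout: -0.79 with a pseudocount of 5, -0.78 with no filter, -0.62 with quantile normalization, -0.38 with detected genes as a term, and -1.21 to -0.77 with single libraries left out, the ends being PBS libraries 1 and 2. The cause of these shifts was not tested. Relative to all genes, 7 members changed sign with detected genes as a term (Ndufa6, Ndufa9, Ndufab1, Ndufs1, Ndufs3, mt-Nd2 and mt-Nd5), 2 with quantile normalization (Ndufab1 and mt-Nd4) and 1 without PBS library 2 (Ndufab1). Median-of-ratios scaling, which put the median of all genes at 0.06, gave 34 members lower at an unadjusted p under 0.05 by limma, against 19 in deposited TPM. Of all 11222 genes, 2534 had such a p in either direction with this scaling and 2706 in deposited TPM. Genes that passed over the whole bulk table numbered 4, with 2800 under library weights, 1383 and 85 without PBS libraries 1 and 3, 21 with quantile normalization (10 higher, 11 lower) 0 with no filter or without dopamine library 2, and 2 to 4 under the other settings but the block.

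Equally numbered bulk libraries are not known to be pairs; with the replicate number as a block, 0 members and 15 genes passed by limma, and the members' median relative change was -1.01.

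In the single cells 0 members passed under all settings run, including DESeq2 and each hashtag left out, except IL-33 against PBS with no filter on low counts, which gave 2 (Ndufa8 and mt-Nd1). With hashtags left out, the members' median relative change ran from -0.01 to 0.04 for dopamine under IL-33, from -0.08 to -0.01 for IL-33 against PBS and from -0.08 to -0.01 for IL-33 plus dopamine against PBS. Genes that passed over the whole table for IL-33 against PBS numbered 74, with 119 by DESeq2, 322 with no filter, 13 with cells of middle depth, 0 with all hashtags in one fit and 5 to 124 with single hashtags left out. For dopamine under IL-33 they numbered 3, with 26 by DESeq2, 6 with cells of middle depth and 1 to 16 with hashtags left out; within clusters 0 to 5 edgeR passed 3, 6, 0, 0, 4 and 19 genes and DESeq2 0, 2, 0, 0, 4 and 7. The PBS group has 2 hashtags, the smaller of 311 cells, and the depth of the bulk libraries is unknown.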
